A study of Mus musculus with 18 samples.

Results

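The data describe 8 long noncoding RNAs with a long record in nuclear organisation and genomic imprinting, Malat1, Neat1, Tug1, Miat, H19, Meg3, Rian and Kcnq1ot1, in whole testis of Taf7l knock-in and wild-type mice. They were chosen by name: every transcript row of the deposited noncoding table that carries one of the 8 symbols was taken, 108 of 33433 rows, and the rows of a symbol were also summed in each library. The groups compared were 3 libraries of adult testis from mice with the knock-in allele of Taf7l (labelled TKI) and 3 libraries from mice with the wild-type gene (labelled TWT), all on the C57BL/6 strain. The X-linked gene Taf7l makes a protein of germ cells that is related to a subunit of TFIID, the general factor that positions RNA polymerase II at promoters. The labels state neither the edited residue nor the age beyond adult, and they do not tie libraries to individual mice. The p-values therefore rest on library-to-library spread, which may be technical. Isolated pachytene spermatocytes and round spermatids are also named in the series and were not analysed here.

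Malat1 and Neat1 are neighbouring RNAs that stay in the nucleus. Malat1 collects in nuclear speckles, domains rich in splicing factors, and the long form of Neat1 is the scaffold of paraspeckles. Tug1 is found in nucleus and cytoplasm, and male mice that lack it are infertile. Miat, also called Gomafu, forms nuclear foci and is best known from neurons. H19, Meg3 and Rian are imprinted RNAs made from the maternal chromosome, and their control regions are methylated in the male germ line. Kcnq1ot1 is made from the paternal chromosome, antisense to Kcnq1, and silences a cluster of neighbouring genes on that chromosome.

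The noncoding libraries held 1436251, 1469154 and 1647421 counts in the knock-in and 1469104, 1430249 and 1384224 counts in the wild type, 7.13% to 7.36% of all linear RNA counts of a library. Taf7l itself was counted 472, 525 and 581 times in knock-in libraries and 507, 551 and 531 times in wild-type libraries, and a knock-in allele need not alter that number. Markers of the tissue were present: of 95 tested markers in 10 lists of testis cell types, 2 were called changed, where 0.982% of all 15787 tested mRNA genes were called. They are the sperm chromatin gene Prm2 (log2 0.53) and the sperm mitochondrial sheath gene Smcp (log2 0.40), both higher in the knock-in (edgeR, adjusted p = 0.0289 for Prm2 and 0.0307 for Smcp). Prm2 was called in 2 of 6 fits that left out 1 library, and Smcp in 1. Both are in the list of elongating spermatids, of whose 9 tested markers 6 were above 0 and 3 below, with a median log2 fold change of 0.06. The markers of that list summed to 14209 to 17006 CPM in the knock-in and 14521 to 16836 CPM in the wild type, and so overlapped. In bulk tissue, a change in the number of cells of a type and a change in RNA per cell cannot be told apart.

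Promoter windows from RefSeq (GRCm38.p6, the same assembly as mm10) are shown for the lncRNAs with the most counts, Malat1, Tug1 and Kcnq1ot1, and for the imprinted Meg3, because the genotype concerns a relative of a TFIID subunit. Each runs 5′ to 3′ from 250 bases before to 50 bases after the annotated start, and capitals mark the matches to any of 4 motifs on either strand, the TATA box TATAAA, the CCAAT box CCAAT, the GC box GGGCGG and the cAMP response element TGACGTCA. Overlapping TATA box matches are joined.
Malat1 (chr19:5802623-5802922, strand -): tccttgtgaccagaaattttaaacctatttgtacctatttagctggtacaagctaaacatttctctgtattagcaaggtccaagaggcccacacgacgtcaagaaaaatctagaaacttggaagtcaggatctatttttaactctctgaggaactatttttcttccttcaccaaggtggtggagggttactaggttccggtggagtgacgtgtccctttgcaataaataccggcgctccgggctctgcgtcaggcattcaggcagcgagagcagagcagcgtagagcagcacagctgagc
Tug1 (chr11:3648765-3649064, strand -): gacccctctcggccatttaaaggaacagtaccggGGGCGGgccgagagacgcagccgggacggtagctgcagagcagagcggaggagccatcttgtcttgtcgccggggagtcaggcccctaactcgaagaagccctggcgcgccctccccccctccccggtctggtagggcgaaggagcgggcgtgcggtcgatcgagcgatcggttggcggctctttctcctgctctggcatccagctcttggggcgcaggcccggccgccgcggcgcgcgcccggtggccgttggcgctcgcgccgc
Kcnq1ot1 (chr7:143296498-143296797, strand -): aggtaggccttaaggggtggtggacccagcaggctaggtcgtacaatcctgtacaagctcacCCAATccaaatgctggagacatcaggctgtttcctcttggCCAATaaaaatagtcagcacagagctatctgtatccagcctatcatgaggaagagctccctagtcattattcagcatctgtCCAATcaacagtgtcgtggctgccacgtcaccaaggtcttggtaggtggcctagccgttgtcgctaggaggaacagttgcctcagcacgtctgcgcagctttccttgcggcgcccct
Meg3 (chr12:109540746-109541045, strand +): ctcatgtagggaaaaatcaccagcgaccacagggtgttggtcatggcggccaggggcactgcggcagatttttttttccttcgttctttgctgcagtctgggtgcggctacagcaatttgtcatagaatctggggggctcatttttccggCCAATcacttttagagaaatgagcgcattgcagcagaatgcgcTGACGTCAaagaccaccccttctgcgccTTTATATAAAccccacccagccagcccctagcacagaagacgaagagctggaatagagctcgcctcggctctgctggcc

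These windows differed in build. The Tug1 window held 37 CpG dinucleotides and 1 GC box, against a median of 7 CpG over 32851 RefSeq windows of the same length. The Kcnq1ot1 window held 3 CCAAT boxes, and the Malat1 window none of the 4 motifs. The Meg3 window held 1 CCAAT box, 1 cAMP response element and 2 overlapping TATA box matches. These 2 matches are 1 stretch that reads the same on both strands. The windows of Rian and Miat are not shown. The Rian window, also of an imprinted RNA, held 0 CpG and none of the 4 motifs, and the Miat window 25 CpG and 1 GC box. Among all windows 13.6% held TATAAA, 37.4% CCAAT, 35.7% GGGCGG and 1.79% TGACGTCA. A match describes letters and is not a measured binding site, and the absence of one says only that these letters are not in the window.

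H19, Meg3 and Rian are also hosts of small RNAs. The RefSeq miRNAs used here place 2 mature sequences inside H19, 3 inside Meg3 and 6 inside Rian, and mature miRNAs were not measured in these libraries. The following belong to the host transcripts whose counts are given further on, with the seed (bases 2 to 8) in capitals.
miR-675-5p: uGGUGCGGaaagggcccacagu
miR-675-3p: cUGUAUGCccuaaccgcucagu
miR-770-5p: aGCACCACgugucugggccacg
miR-370-3p: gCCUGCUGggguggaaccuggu

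None of the 8 lncRNAs differed between the genotypes by the test. Counts were tested with edgeR's quasi-likelihood test over the whole noncoding table, and a feature was called changed at a Benjamini-Hochberg adjusted p under 0.05. Of the 108 rows 74 were above 0 in some library, 19 were above 0 in all 6, and 20 passed the filter on low counts. Of those 20 rows 0 were called, and 0 had an unadjusted p under 0.05, the lowest being 0.144. Among all 9301 tested transcripts 0.0968% were called and 8.97% had an unadjusted p under 0.05, so a set of this size would rarely hold a call. All 8 summed symbols were tested, 0 were called and 1, Tug1, had an unadjusted p under 0.05, where 0.111% of 8125 tested symbols were called and 9.55% had an unadjusted p under 0.05. Their median log2 fold change was -0.05, with 2 above 0 and 6 below, against a median of 0.00 over all tested symbols. DESeq2 also called 0 of the 8 sums and 0 of the rows. Of the 108 rows 0 had an adjusted p under 0.05 in the authors' deposited table, where the lowest unadjusted p was 0.0566, for a Rian row.

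**Figure D1:**
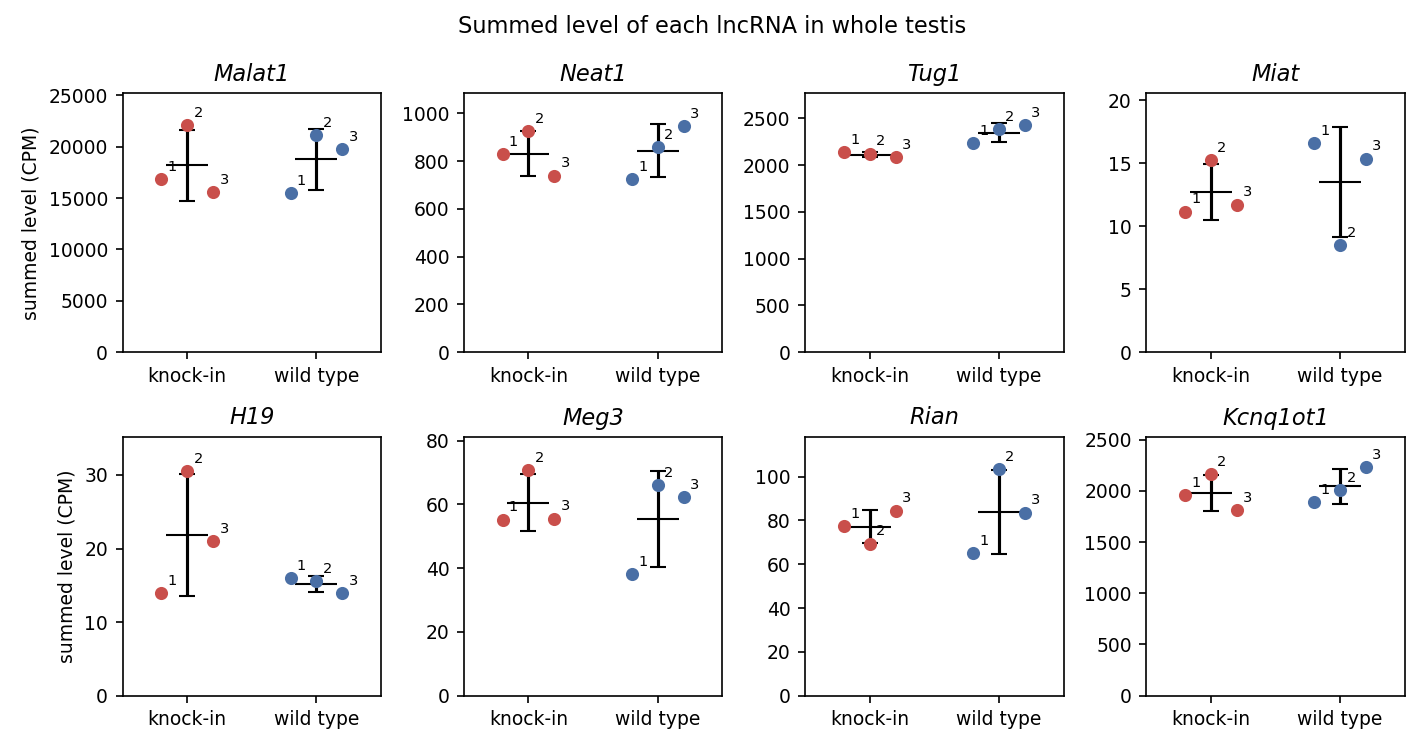
Summed level of each lncRNA per library, in TMM-scaled CPM of the noncoding table (counts relative to library size), with knock-in libraries in red on the left and wild-type libraries in blue on the right. Numbers give the replicate, horizontal bars the mean and vertical bars the SD (n = 3 each), and the libraries of the genotypes overlap in each panel except that of Tug1.

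The levels spanned a wide range. As FPKM, which is relative to length, and summed over the rows of a symbol, the order from the highest was Malat1, Tug1, Neat1, Rian, Meg3, Kcnq1ot1, H19 and Miat. Over the 6 libraries Malat1 ran from 219 to 376 FPKM, Tug1 from 24.7 to 29.9 and Neat1 from 6.31 to 9.32, without overlap. Rian (1.78 to 2.58) overlapped with Meg3 (1.32 to 2.37), and Meg3 with Kcnq1ot1 (1.14 to 1.45). H19 lay between 0.37 and 0.88 FPKM and Miat between 0.08 and 0.30, each without overlap with the one above it in that order. By counts the order differs, since Kcnq1ot1 spans 83437 bases: Malat1 held 77.9% of the counts of the 8 symbols, Tug1 9.42%, Kcnq1ot1 8.48%, and Neat1 3.53%. Rian had 702 counts over the 6 libraries, Meg3 504, H19 162 and Miat 114.

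Malat1 (ENSMUSG00000092341, mm10 chr19:5795690-5802672) was the most abundant of the 8 and made up 1.81% of all noncoding counts. Its rows summed to 24120, 31862 and 25229 counts in knock-in libraries, against 22294, 29774 and 27003 counts in wild-type libraries. As TMM-scaled CPM this was 16842, 22113 and 15562 in the knock-in and 15447, 21107 and 19777 in the wild type, so library 2 was the highest of each genotype and the groups overlapped. The log2 fold change was -0.05 ± 0.14 (SE) with a 95% interval from -0.37 to 0.28 (edgeR, adjusted p = 0.944). A change beyond 0.772-fold or 1.21-fold thus lies outside the interval.

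The counts of Malat1 fell mostly on 1 row, ENSMUST00000172812, which took 91.5%, 90.0% and 93.2% of them in knock-in libraries and 89.1%, 89.4% and 88.3% in wild-type libraries. The share was higher in each knock-in library (91.6% ± 1.61 in the knock-in and 88.9% ± 0.569 in the wild type, SD, n = 3 each). The exact permutation test gave p = 0.1, two-sided, the smallest that 3 against 3 libraries allow, and 0.7 adjusted over the 7 lncRNAs with more than 1 row. How often such shares lay apart among all symbols with more than 1 row was not counted. How reads that rows may share were divided is not given, so the shares are uncertain. The 2 other tested rows had fitted log2 fold changes of -0.36 ± 0.24 (SE; ENSMUST00000174808, adjusted p = 0.727 by edgeR) and -0.52 ± 0.32 (ENSMUST00000173314, adjusted p = 0.714 by edgeR). The last of these had 640, 875 and 354 counts in the knock-in and 714, 898 and 948 in the wild type, and knock-in library 3 was the lowest. Without any 1 library the log2 fold change of ENSMUST00000174808 ran from -0.68 (without knock-in library 2) to -0.17 (without knock-in library 3), and that of ENSMUST00000173314 from -0.87 to -0.20 without the same libraries. Set against the 6983 bases of Malat1, the ratio of count to FPKM gave these rows lengths near 0.66 and 0.56 kb. Short rows weigh heavily in an FPKM sum: the long row alone stood at 131, 168 and 121 FPKM in the knock-in and 117, 160 and 151 FPKM in the wild type.

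Malat1 had a further trace in the circular RNA table, which held between 14381 and 20127 counts per library. Of its 7391 circles 2 overlapped one of the 8 loci, both inside Malat1 and each with 2 counts in a single library, one in knock-in library 1 and one in knock-in library 3. Neither was counted in a wild-type library, and 2 counts are within the limit of 3 that a count of 0 allows. They were too few to test.

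Library 2 of each genotype also stood at an end of several of the 10 marker sums. It was the highest library within both genotypes for 4 lists (endothelium and connective tissue, Sertoli cells, spermatogonia and erythrocytes) and the lowest within both for 2 (meiotic spermatocytes and round spermatids). For the other 4 lists, those of Leydig cells, peritubular myoid cells, macrophages and elongating spermatids, neither held in both genotypes. How often library 2 stood at such an end in both genotypes among all genes was not counted. Summed markers of endothelium and connective tissue stood at 390, 503 and 448 CPM in the knock-in and 405, 482 and 414 CPM in the wild type. Markers of round spermatids summed to 2514, 2367 and 2442 CPM in the knock-in and 2567, 2352 and 2482 CPM in the wild type. All 11 markers of the first list and all 10 of the second were detected and tested. Of either 0 were called, where 0.982% of all tested mRNA genes were called. Their part in the spread of Malat1 was not tested.

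**Figure D2:**
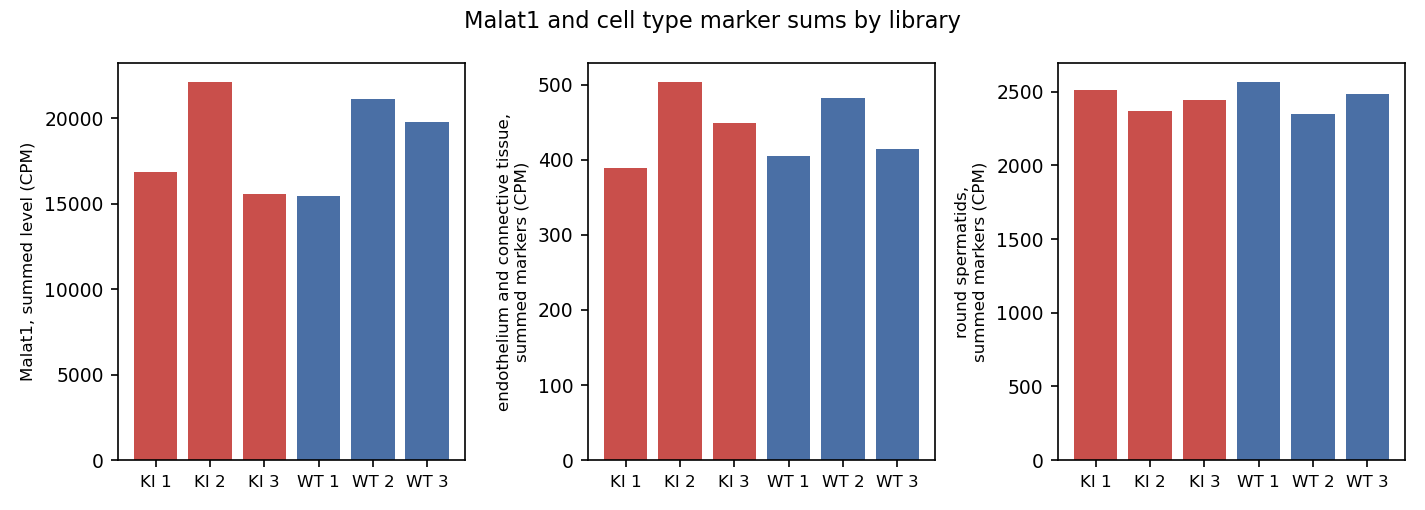
Level of Malat1 and the summed levels of the endothelium and connective tissue markers and of the round spermatid markers in each library, all in TMM-scaled CPM of their own tables. Red bars are knock-in (KI) and blue bars wild-type (WT) libraries. Library 2 of each genotype was highest for Malat1 and for the endothelial markers and lowest for the round spermatid markers. For 4 of the 10 marker lists, not shown, it was neither highest in both genotypes nor lowest in both.

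Neat1 (ENSMUSG00000092274, chr19:5824708-5845480) lies 22.0 kb from Malat1. It was counted 1189, 1333 and 1197 times in knock-in libraries, against 1046, 1211 and 1293 times in wild-type libraries. The level was 831 ± 93.4 CPM in the knock-in and 843 ± 112 CPM in the wild type (SD, n = 3 each). This gave a log2 fold change of -0.02 ± 0.12 (SE; 95% interval -0.29 to 0.24; edgeR, adjusted p = 0.969).

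Rows that match the long and the short form of Neat1 were both found. ENSMUST00000173672 had an implied length of 20.8 kb, close to the 20773 bases of the whole locus, and ENSMUST00000174287 one of 3.0 kb. The long row had 787, 836 and 806 counts in the knock-in and 604, 828 and 857 in the wild type, or 1.58, 1.65 and 1.40 FPKM against 1.20, 1.67 and 1.83 FPKM. For the short row the counts were 388, 463 and 382 in the knock-in and 383, 363 and 412 in the wild type, or 5.38, 6.31 and 4.59 FPKM against 5.26, 5.07 and 6.08 FPKM. In every library the short row was thus the more abundant per length, and its log2 fold change was 0.01 ± 0.13 (SE; edgeR, adjusted p = 0.988). Another row, ENSMUST00000174829, with an implied length of 1.02 kb, held 14, 34 and 9 counts in the knock-in and 59, 20 and 24 in the wild type. Reads from the part of the locus that the forms share cannot be assigned by sequence, and how they were divided is not given, so values of single rows are uncertain.

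Genes of the bodies that these RNAs belong to were described from the mRNA table. Among all tested mRNA genes 0.982% were called, and of 19 paraspeckle protein genes, all tested, 0 were. The log2 fold change was above 0 for 11 of them and below 0 for 8, with a median of 0.04, against 0.00 over all tested mRNA genes. Hnrnpul1, an RNA-binding protein, had 496 CPM in the knock-in and 483 CPM in the wild type (log2 0.04), and Matr3, a nuclear matrix protein, 391 CPM against 452 CPM (log2 -0.21, adjusted p = 0.218 by edgeR). Of 16 nuclear speckle genes 0 were called, 7 above 0 and 9 below, with a median of -0.015. Son, a large speckle protein, stood at 658 CPM in the knock-in and 707 CPM in the wild type, and Prpf8, a core splicing factor, at 672 CPM against 678 CPM. Among 9 coding neighbours of Malat1 and Neat1 0 were called, with a median of 0.04. The chromatin gene Dpf2 had 82.5 CPM in the knock-in and 75.9 CPM in the wild type (log2 0.12).

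**Figure D3:**
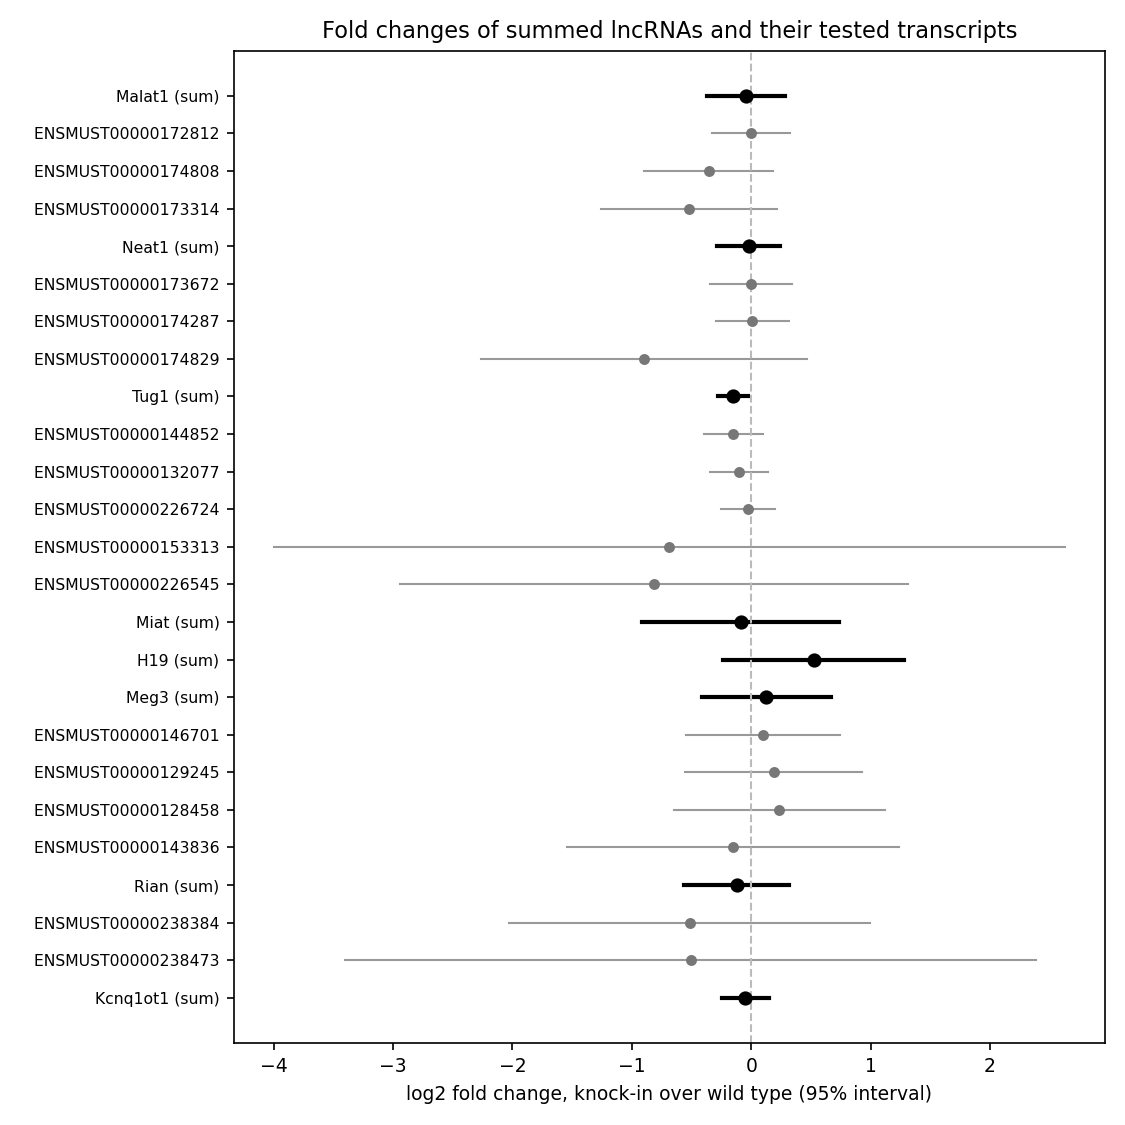
Fitted log2 fold changes of knock-in over wild type with 95% intervals, for the 8 summed lncRNAs (black) and for the tested transcripts of those with more than 1 tested row (grey). The interval of the Tug1 sum, from -0.28 to -0.03, is the only one among the sums that does not reach 0, and the widest belong to rows with low or erratic counts.

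Tug1 (ENSMUSG00000056579, chr11:3639785-3648814) was the only one of the 8 whose libraries did not overlap between the genotypes, and it did not pass the test. Its rows summed to 2134, 2121 and 2082 CPM in knock-in libraries, against 2232, 2385 and 2426 CPM in wild-type libraries. All knock-in libraries lay below all wild-type libraries, as in 1 direction or the other for 16.0% of tested symbols. The ratio was 0.900, a log2 fold change of -0.15 ± 0.06 (SE; 95% interval -0.28 to -0.03), with an unadjusted p of 0.0236 and an adjusted p of 0.419 by edgeR. Alone among the 8, Tug1 is also listed as a gene in the mRNA table, where it had 3192, 3218 and 3536 counts in the knock-in and 3395, 3540 and 3470 in the wild type. Scaled to that table this was 176, 166 and 166 CPM against 185, 187 and 197 CPM, a log2 fold change of -0.16 ± 0.06 (SE; adjusted p = 0.244 by edgeR). The authors' deposited table gives an unadjusted p of 0.0116 and an adjusted p of 0.158 for that gene. Both tables come from the same libraries, so the second value is no independent evidence.

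The Tug1 difference kept its sign without any 1 library. No fit left out a row, so the part of single rows in the difference was not tested. Without any 1 library the log2 fold change of the sum lay between -0.19 and -0.13. The row with the most counts, ENSMUST00000144852, had 1790, 1739 and 1767 counts in the knock-in and 1605, 1992 and 1945 in the wild type, and the groups overlapped (log2 -0.15 ± 0.11 SE; adjusted p = 0.744 by edgeR). ENSMUST00000132077 (log2 -0.10 ± 0.10) and ENSMUST00000226724 (log2 -0.03 ± 0.10) overlapped as well. The row ENSMUST00000153313 was erratic, with 0, 25 and 325 counts in the knock-in and 383, 0 and 123 in the wild type. It took 9.63% of the Tug1 counts in knock-in library 3 and 11.9% in wild-type library 1, the libraries in which ENSMUST00000144852 held its smallest shares, 52.4% and 49.8%. The SD of the log2 level of the Tug1 sum over the 6 libraries, 0.09, was the smallest among the 8 sums.

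**Figure D4:**
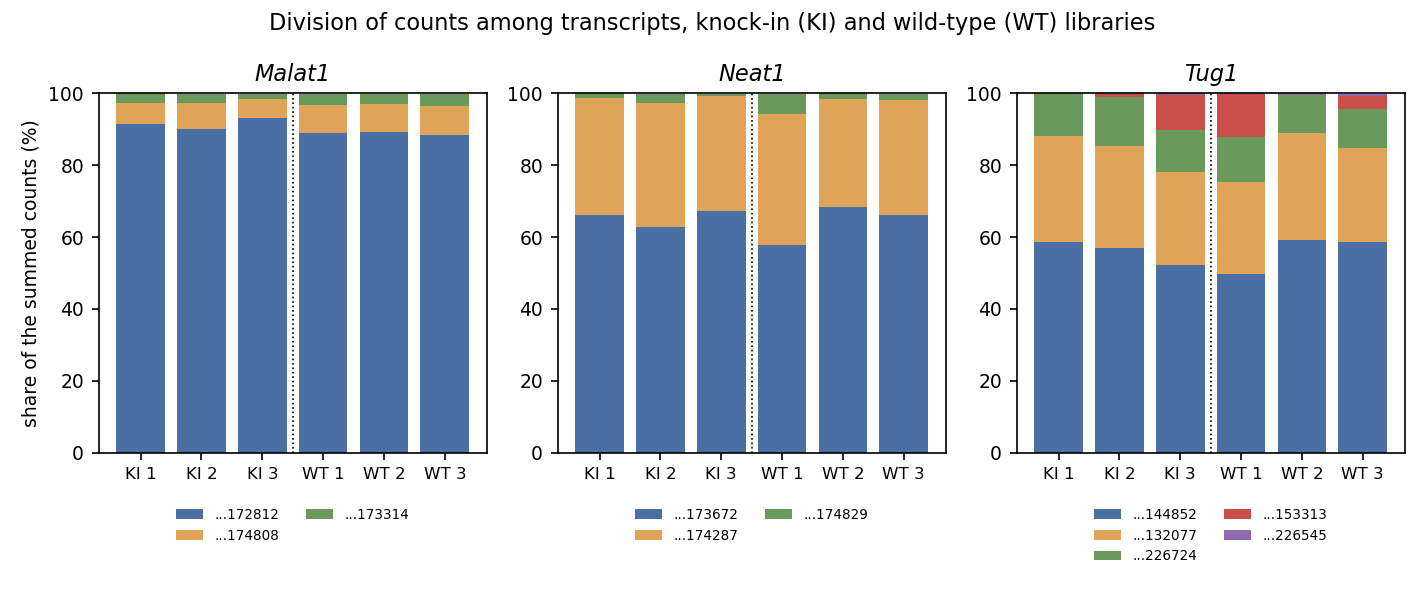
Share of the summed counts of Malat1, Neat1 and Tug1 held by each tested transcript, in percent, with knock-in (KI) libraries left of the dotted line and wild-type (WT) libraries right of it. The colours name transcripts by the last digits of their identifiers. The row ENSMUST00000153313 of Tug1 took between 0 and 11.9% of the counts from library to library.

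Of the 10 marker sums, those of peritubular myoid and Leydig cells lay apart between the genotypes. The 9 peritubular myoid markers summed to 614, 628 and 636 CPM in the knock-in and 571, 579 and 553 CPM in the wild type, and the 9 Leydig cell markers to 1447, 1426 and 1421 CPM against 1229, 1390 and 1231 CPM. These sums were higher in each knock-in library, and 0 of these markers were called. Among single tested mRNA genes 18.5% did not overlap in 1 direction or the other. Sertoli cell markers (3839 to 4292 CPM in the knock-in, 3868 to 3996 CPM in the wild type) and meiotic spermatocyte markers (6880 to 7731 CPM and 7222 to 7901 CPM) overlapped. The sums of all other marker lists, those of macrophages and of endothelium and connective tissue among them, overlapped as well. The part of any marker sum in the lower Tug1 values was not tested. Of 4 tested coding neighbours of Tug1 and Miat 0 were called, 3 above 0 and 1 below, with a median log2 fold change of 0.28 and a highest of 0.52. Smtn, among these neighbours, is also among the 9 peritubular myoid markers. Morc2a, a chromatin silencing factor, had 144 CPM in the knock-in and 152 CPM in the wild type (log2 -0.09), and the sulfotransferase gene Tpst2 8.78 CPM against 7.68 CPM (log2 0.19). Tug1 RNA has been linked to Polycomb repressive complex 2, of whose 10 tested genes 0 were called, with a median log2 fold change of -0.0044. Rbbp4, a histone-binding subunit, had a log2 fold change of -0.12 and Rbbp7, its close relative, of -0.22 (adjusted p = 0.364 and 0.260 by edgeR).

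Miat (ENSMUSG00000097767, chr5:112213228-112228948) was near the limit of detection. It was counted 16, 22 and 19 times in knock-in libraries and 24, 12 and 21 times in wild-type libraries, 57 counts in either genotype. Of its 6 rows 3 were above 0 and 1, ENSMUST00000181535, held 96.5% of the counts. The 95% interval of the log2 fold change ran from -0.91 to 0.74, so a fall to 0.532-fold or a rise to 1.67-fold lies within it.

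The imprinted RNAs H19, Meg3 and Rian were likewise scarce. H19 (ENSMUSG00000000031, chr7:142575530-142578146) was counted 20, 44 and 34 times in knock-in libraries, against 23, 22 and 19 times in wild-type libraries. Scaled, these were 14.0, 30.5 and 21.0 CPM in the knock-in and 15.9, 15.6 and 13.9 CPM in the wild type. Knock-in libraries 2 and 3 lay above all wild-type libraries and knock-in library 1 lay among them. The fitted log2 fold change of 0.52 ± 0.33 (SE; 95% interval -0.24 to 1.28) had an adjusted p of 0.691 by edgeR, and it was 0.21 without knock-in library 2. Of 7 rows 5 were above 0, and ENSMUST00000136359, the 1 row that was tested, held 13, 40 and 13 counts in the knock-in and 5, 18 and 19 in the wild type.

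Meg3 (ENSMUSG00000021268, chr12:109540996-109571729) had 79, 102 and 90 counts in the knock-in and 55, 93 and 85 counts in the wild type. The level was 60.5 ± 8.92 CPM in the knock-in and 55.4 ± 15.1 CPM in the wild type (SD, n = 3 each; log2 0.13 ± 0.24 SE; adjusted p = 0.907 by edgeR). Wild-type library 1 was the lowest of the 6, and without it the log2 fold change was -0.09. Among its 11 rows 7 were above 0 and 4 were tested. ENSMUST00000146701 held 39.9% of the counts and its share in single libraries ran from 38.2% to 41.1% in the knock-in and from 35.5% to 44.7% in the wild type.

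Rian (ENSMUSG00000097451, chr12:109603945-109661716) starts 32.2 kb beyond the end of Meg3 and had the most rows, 68. It was counted 111, 100 and 137 times in knock-in libraries and 94, 146 and 114 times in wild-type libraries. In CPM the knock-in libraries stood at 77.5, 69.4 and 84.5 and the wild-type libraries at 65.1, 103 and 83.5, and the wild type held both the lowest and the highest value (log2 -0.12 ± 0.19 SE; adjusted p = 0.887 by edgeR). The counts were spread thinly. Of the 46 rows above 0, 26 were counted in both genotypes, 8 only in knock-in libraries and 12 only in wild-type libraries, and 13 were seen in 1 library. The rows counted in 1 genotype had at most 15 counts each and were not tested. A row seen in 1 library can only be counted in 1 genotype. How often rows of the whole noncoding table were counted in 1 genotype only was not counted. ENSMUST00000238384, the leading row, held 24, 14 and 19 counts in the knock-in and 39, 35 and 4 in the wild type. When only the 2 tested rows were summed, the log2 fold change was -0.52 in place of -0.12.

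Kcnq1ot1 (ENSMUSG00000101609, chr7:143213111-143296547) was the best measured of the imprinted RNAs, with a single row, ENSMUST00000185789. It had 2801, 3116 and 2935 counts in the knock-in and 2730, 2833 and 3051 counts in the wild type. The level was 1976 ± 177 CPM in the knock-in and 2045 ± 174 CPM in the wild type (SD, n = 3 each), and the libraries overlapped. The log2 fold change was -0.05 ± 0.09 (SE), with a 95% interval from -0.24 to 0.15 (edgeR, adjusted p = 0.899). Its implied length of 93.2 kb exceeds the 83437 bases of the RefSeq gene. Since the RNA overlaps Kcnq1 on the opposite strand and the use of strand in counting is not given, reads of the pair cannot be told apart with certainty.

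Coding genes in the imprinted regions of these RNAs gave 0 calls, where 0.982% of all tested mRNA genes were called. In the Kcnq1 region 8 of 10 genes were tested, 5 above 0 and 3 below, with a median of 0.03. The histone chaperone gene Nap1l4 had 113 CPM in the knock-in and 112 CPM in the wild type, and the membrane protein gene Cd81 had 101 CPM against 98.9 CPM. Cdkn1c, a cell cycle inhibitor that Kcnq1ot1 silences on the paternal chromosome, chosen after its values were seen, had 4.57, 4.55 and 4.61 CPM in the knock-in and 3.82, 4.22 and 3.13 CPM in the wild type. Its libraries did not overlap, as for 18.5% of tested mRNA genes, and it did not pass (log2 0.30 ± 0.18 SE; adjusted p = 0.543 by edgeR). In the H19 region 4 of 7 genes were tested: the growth factor gene Igf2 had 13.3 CPM in the knock-in and 12.8 CPM in the wild type (log2 0.06), and the mitochondrial ribosomal gene Mrpl23 5.23 CPM against 4.77 CPM (log2 0.13). In the region of Meg3 and Rian 3 of 5 genes were tested. Wars, a tRNA synthetase gene, had a log2 fold change of 0.11 and Begain, a gene next to that cluster, of 0.02, and Rtl1, a retrotransposon-derived gene, had no count in any library.

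Beyond these regions, 21 of 24 other imprinted genes were tested, and 0 were called, 12 above 0 and 9 below, with a median of 0.02. Gnas, a complex locus that encodes the stimulatory G protein subunit, had 113, 140 and 111 CPM in the knock-in and 84.1, 103 and 92.1 CPM in the wild type (log2 0.39 ± 0.10 SE; adjusted p = 0.134 by edgeR). Its libraries did not overlap, as for 18.5% of tested mRNA genes. It was called by 2 alternatives, DESeq2 (adjusted p = 0.0105) and 1 other fit by edgeR. Over all alternatives the adjusted p ran up to 0.353. Peg10, a retrotransposon-derived gene, had 85.4 CPM in the knock-in and 92.1 CPM in the wild type (log2 -0.11). Of 13 tested genes for CTCF, DNA methylation and the keeping of imprints 0 were called, with a median of 0.04. Trim28, a corepressor that protects imprints, had a log2 fold change of -0.07 and Uhrf1, which guides maintenance methylation, of 0.09. Over the 10 coding lists together 107 genes were tested and 0 were called, where 0.982% of all tested mRNA genes were called. Of the 107, 63 lay above 0 and 44 below, where 50.6% of all tested mRNA genes lay above 0. An unadjusted p under 0.05 by edgeR was found for 14 of the 107, against 12.9% of all tested genes.

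Other long-known lncRNAs were measured in the same table. Of 48 listed symbols 38 were found and 22 were tested, 10 above 0 and 12 below. Their median was -0.07, with a range from -0.44 to 0.46. Of the 22, 0 were called, where 0.111% of all 8125 tested symbols were called. Rmrp, the RNA of a ribonuclease that processes ribosomal and mitochondrial RNA, stood at 6523, 8943 and 8423 CPM in the knock-in and 5702, 5994 and 5632 CPM in the wild type. All its knock-in libraries lay above the wild-type libraries (log2 0.46 ± 0.10 SE; adjusted p = 0.159 by edgeR). The genotypes lay apart in 1 direction or the other for 16.0% of tested symbols, and among those listed here also for Dlx6os1 (log2 0.33) and Sox2ot (log2 -0.37). For Rmrp 3 alternatives gave a call: DESeq2 (adjusted p = 0.00109), edgeR with no filter on low counts (0.0339) and edgeR without knock-in library 1 (0.00747). Over all alternatives the adjusted p of Rmrp ran up to 0.388. Oip5os1, also called Cyrano, had a log2 fold change of -0.16 ± 0.09 and Peg13, an imprinted RNA, of 0.07 ± 0.16 (SE).

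Genes with the most similar course over the 6 libraries were sought among 9508 mRNA genes of at least 10 CPM, by the root mean square difference in log2 CPM after centring. The nearest to Malat1 were Fbln5 (0.03) and Creb3l2 (0.03), where the SD of Malat1 over the libraries was 0.23. For Tug1 they were Yy1 (0.02) and Lsm3 (0.02), for Neat1 Orc4 (0.03) and Acad8 (0.04), and for Kcnq1ot1 Hexdc (0.03) and Tubgcp5 (0.03). Such closeness is common for a flat profile: 2476 genes lay within 0.1 of Tug1 and 1201 within 0.1 of Kcnq1ot1, against 112 for Malat1. The scarce RNAs had nearest genes farther off, Htatsf1 (0.07) for Meg3, Hprt (0.07) for Rian, Mier2 (0.12) for Miat and H4c12 (0.15) for H19. With 6 libraries this is a description, and the libraries share depth and tissue composition.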

How the data were processed

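Whole-testis RNA of 3 Taf7l knock-in and 3 wild-type samples was analysed. Per the labels, total RNA was extracted with Trizol and made into libraries with a stranded kit. Per the file headers, the deposited noncoding and mRNA tables hold counts per feature and FPKM per library. The deposited counts are whole numbers, and 764 of 200598 noncoding values have a count of 0 with FPKM above 0, so they appear to be estimated counts rounded by the authors. The deposited circular RNA table holds counts and RPM. The authors' deposited tables also give mean FPKM or RPM, a log2 ratio of means, p-values and adjusted p-values. Per the submitters' processing notes, reads were placed on mm10. Which aligner, counter, strand setting and statistical test were used is not given in the sources used here.

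Counts were tested with edgeR 4.0.16 (limma 3.58.1, R 4.3.3), quasi-likelihood, TMM scaling and filterByExpr (minimum count 10, minimum total 15), for transcripts, for counts summed by symbol and for mRNA genes, and adjusted by Benjamini-Hochberg over each table. Intervals are 95%, and standard errors come from the F statistic. Fitted fold changes were checked on simulated data with large planted changes in well-counted features. That check does not cover small changes or changes in scarce RNAs. Alternatives were DESeq2 1.42.0, its size factors, no filter, the scaling of the mRNA table, limma on log2(FPKM + 0.1), sums of tested rows, a replicate block and leaving out each library. The 8 lncRNAs, gene lists and tests were chosen with earlier results of these data known. Named were all 8 lncRNAs, the 2 genes with the most counts in each pathway list without calls, and the 3 other lncRNAs with the most counts. One gene that this rule names is not reported here. Counting intervals cover counting error only. No library repeated another, with a chi-square per degree of freedom of at least 4.18 between noncoding libraries of a genotype.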

Additional observations from a re-analysis of the deposited data

How the results depend on the processing

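No alternative called any of the 8 sums or any of their 20 tested transcripts. The number of calls over the tables moved more. DESeq2 called 119 transcripts, 101 symbols and 451 mRNA genes, against 9, 9 and 155 by edgeR, and without a filter on low counts there were 129 transcripts and 79 symbols. With the replicate number as a block 2 transcripts were called. Same-numbered libraries correlated in their deviations from the group mean at 0.15, 0.13 and 0.0043 in the mRNA table. Libraries of different number correlated there at -0.17 to 0.039. In the noncoding table the same-numbered values were -0.0033, 0.013 and -0.021. The labels do not say whether the numbers mark a batch, and the main fit did not take them to pair the samples. The block moved no other count of calls by over 1.5 times. Under the block Gnas was called (adjusted p = 0.0310 by edgeR). Leaving out 1 library gave 6 to 15 transcripts, 5 to 13 symbols and 11 to 125 mRNA genes. Counts past 1.5 times came without knock-in library 3 (15 transcripts, 11 mRNA genes) and knock-in library 2 (5 symbols), and 74, 32 and 20 mRNA genes were called without wild-type library 1, 2 and 3. Why the counts moved so was not tested, beyond the smaller number of samples.

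Direction was not settled for most of the 8. Across the fits without 1 library the log2 fold change ran from -0.21 to 0.050 for Malat1, -0.12 to 0.069 for Neat1, -0.33 to 0.089 for Miat, -0.087 to 0.27 for Meg3, -0.28 to 0.053 for Rian and -0.12 to 0.018 for Kcnq1ot1, and Tug1 and H19 kept their sign. Among single rows it ran from -0.16 to 0.094 for ENSMUST00000172812 of Malat1, -0.16 to 0.12 for ENSMUST00000173672 and -0.11 to 0.11 for ENSMUST00000174287 of Neat1, -3.75 to 0.71 for ENSMUST00000153313 and -0.10 to 0.012 for ENSMUST00000226724 of Tug1, and -0.25 to 0.16 for ENSMUST00000181535 of Miat. It ran from -0.23 to 0.88 for ENSMUST00000136359 of H19, -0.59 to 0.16 for ENSMUST00000143836 and -0.10 to 0.29 for ENSMUST00000146701 of Meg3, -1.09 to 0.66 for ENSMUST00000238473 of Rian and -0.12 to 0.028 for ENSMUST00000185789 of Kcnq1ot1. The 2 main Neat1 rows, near 0 throughout, also changed sign with the block (0.016 for ENSMUST00000173672), the scaling of the mRNA table (-0.0055 for ENSMUST00000174287) and limma (-0.019 for ENSMUST00000174287). Of the other genes named, the ranges were -0.28 to 0.18 for Begain (-0.015 with the block), -0.041 to 0.16 for Cd81, -0.00083 to 0.095 for Hnrnpul1, -0.020 to 0.20 for Igf2, -0.067 to 0.27 for Mrpl23, -0.021 to 0.088 for Nap1l4, -0.067 to 0.24 for Peg13 and -0.052 to 0.024 for Prpf8. Depth limits Miat, H19, Meg3 and Rian, with at most 146 counts in a library.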
